A study of Mus musculus with 24 samples.

Results

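The 10 genes described here are Gpnmb and 9 regulators and targets of the MiT/TFE transcription factors (Tfe3, Tfeb, Mitf, Flcn, Fnip1, Fnip2, Rragd, Ctsd and Sqstm1), out of 48985 genes in the count table. Gpnmb was selected on measured values, because its counts were high in i7 clone 12, and the other 9 were listed for their place in the pathway, with earlier results of these libraries known. All 10 passed the filter on low counts, which 16253 genes passed. The question was whether the high Gpnmb level of i7 clone 12 came with other genes of the pathway.

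Poly(A) RNA was sequenced from F121/9, a female embryonic stem cell line of mouse that carries one 129/Sv and one CAST/EiJ genome, kept on gelatin in serum-free medium with LIF and inhibitors of MEK (PD0325901) and GSK-3β (CHIR99021). All 12 groups share that background and culture. For each of 5 recombinations (d3 and d6, and i7, i10 and i12) the study has a parental line, whose genotype is given as control, and recombined cells. Both d3 (12 and 21) and i7 (7 and 12) are represented by a pair of clones, and d6 by clone 16 alone, i10 by its clone 18 and i12 by its clone 10. Each of these 7 is a single clone, so a difference between a clone and its parental line can belong to that clone alone, and what each recombination changed is not given in the sources used here. Every group has 2 biological replicates, and whether these came from separate cultures is not stated, so p-values measure the spread between these samples.

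MITF, TFEB, TFE3 and TFEC form the MiT/TFE family of basic helix-loop-helix leucine zipper factors, which bind E-box and M-box motifs and activate genes of lysosomes and autophagy. When amino acids are plentiful, folliculin (Flcn) with its partners Fnip1 and Fnip2 acts on the GTPases RagC and RagD (Rragd) at the lysosome, so that mTORC1 phosphorylates TFEB and TFE3 and holds them in the cytoplasm. In mouse embryonic stem cells, nuclear Tfe3 is known to sustain self-renewal, and the folliculin complex is needed for exit from that state. Gpnmb, a transmembrane glycoprotein of melanosomes and lysosomes, is widely used as a transcriptional readout of MITF and TFE3.

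The 250 bases before the RefSeq start of 4 genes are shown in whole or in part because they differ in the motif that the family binds. Capitals mark the E-box CACGTG, which reads the same on both strands, or the extended E-box TCACGTGA, which contains it. Sequences are from RefSeq on GRCm38.p6 and run 5′ to 3′ along the gene's strand.
Gpnmb, chr6:49036268-49036517, plus strand: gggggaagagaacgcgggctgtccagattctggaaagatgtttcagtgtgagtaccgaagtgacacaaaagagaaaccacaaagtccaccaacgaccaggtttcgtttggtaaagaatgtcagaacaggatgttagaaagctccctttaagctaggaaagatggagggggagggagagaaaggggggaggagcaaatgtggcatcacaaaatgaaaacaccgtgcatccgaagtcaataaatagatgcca
Rragd, chr4:32982748-32982997, plus strand: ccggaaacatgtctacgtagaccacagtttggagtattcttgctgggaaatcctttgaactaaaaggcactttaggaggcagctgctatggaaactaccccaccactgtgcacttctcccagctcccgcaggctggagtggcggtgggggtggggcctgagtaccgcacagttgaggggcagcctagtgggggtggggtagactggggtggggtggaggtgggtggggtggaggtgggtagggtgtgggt
Fnip1, chr11:54437929-54438178, plus strand: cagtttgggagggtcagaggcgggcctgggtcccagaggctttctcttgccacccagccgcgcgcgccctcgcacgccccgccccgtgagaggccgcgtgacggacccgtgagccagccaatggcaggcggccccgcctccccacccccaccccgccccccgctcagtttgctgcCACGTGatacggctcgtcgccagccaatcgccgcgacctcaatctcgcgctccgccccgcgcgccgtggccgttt
Ctsd, first E-box with its flanks, chr7:142388048-142388077, minus strand: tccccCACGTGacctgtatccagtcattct
Ctsd, second E-box with its flanks, chr7:142387908-142387937, minus strand: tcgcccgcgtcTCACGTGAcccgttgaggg

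RefSeq gave 15 such windows for the 10 genes. Only the windows of 2 genes held an E-box: Fnip1 had 1, which began 75 bases before the start, and Ctsd had 2, at 245 and 98 bases, the nearer of them extended. The M-box core CATGTG, searched with its reverse complement CACATG, was in none of the 15. Of 32851 promoter windows of the same length, 6.02% held an E-box, 0.785% the extended form and 12.3% an M-box core. A match is a description of letters, and its absence from these windows says nothing about binding elsewhere.

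Levels are given as CPM, the counts of both alleles scaled to a common library size with each library's effective size, and total counts per library ran from 3286819 to 15581094. Few counts limit the precision of the low genes: Gpnmb had 30 to 891 counts per library and Rragd 45 to 474. The cells carried the embryonic stem cell markers Pou5f1 (511 to 1109 CPM), Nanog (985 to 2217 CPM) and Esrrb (397 to 857 CPM) in all 24 libraries. The spread within groups was uneven, and d3 parental replicate 2 stood apart from the other 5 libraries of d3 in Rragd (4.63 CPM against 9.46 to 11.8), Fnip2 (50.4 against 77.2 to 91.1) and Ctsd (259 against 117 to 158).

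Gpnmb (ENSMUSG00000029816.10, chromosome 6, 49036546 to 49070929 on the plus strand, GENCODE M21 on GRCm38) had 51.6 and 67.5 CPM in the libraries of i7 clone 12. In the i7 parental line it had 6.96 and 5.84 CPM, and in i7 clone 7, the other clone of that recombination, 9.36 and 9.65 CPM. Both libraries of i7 clone 12 lay above the other 22, which ran from 4.10 to 25.0 CPM with a median of 7.97. Its mean was 59.5 ± 11.3 CPM (SD, n = 2) against 6.40 ± 0.796 CPM (SD, n = 2) in the parental line, a log2 difference of 3.22 (SE 0.332). In bulk RNA, more cells that express a gene and more of its RNA per cell cannot be told apart. This difference chose the gene and is given as a description, without a test, as are the differences from i7 clone 7 (2.65, SE 0.320) and of i7 clone 7 from the parental line (0.58, SE 0.321).

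**Figure D1:**
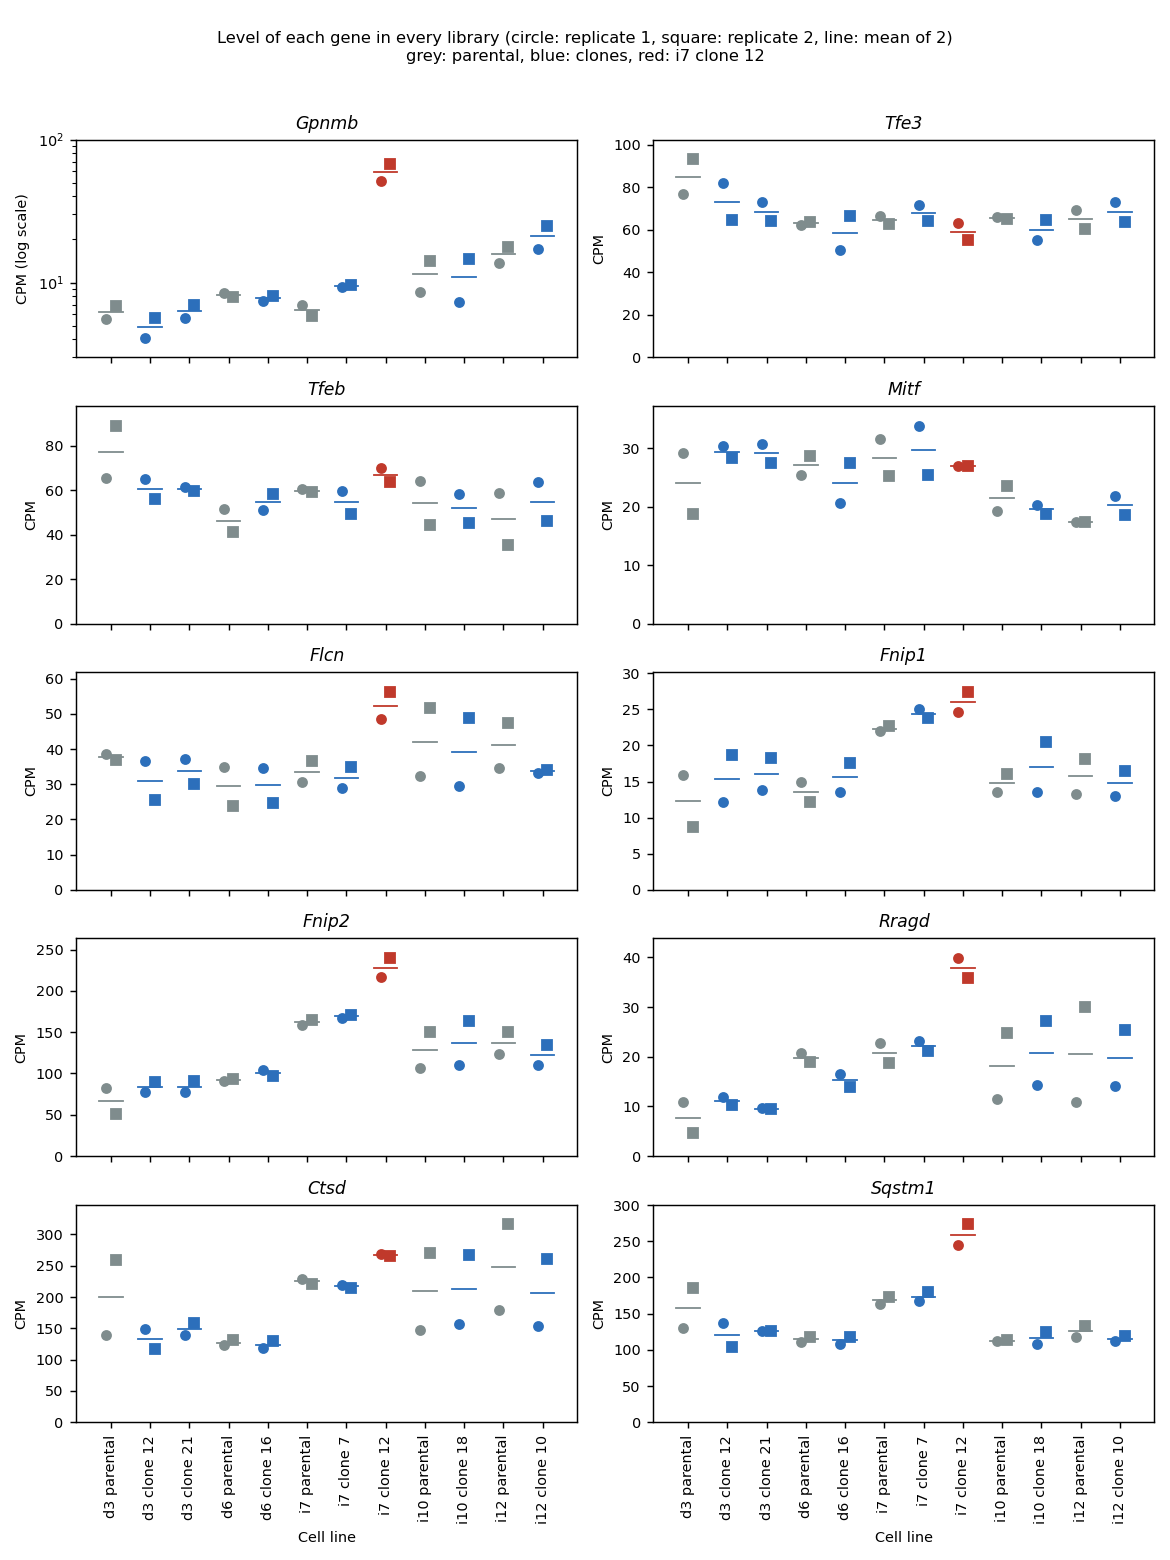
CPM of each of the 10 genes in all 24 libraries, with the cell lines along the horizontal axis, circles for replicate 1, squares for replicate 2 and lines for the mean of 2; the Gpnmb axis is logarithmic and the others start at 0. The red i7 clone 12 libraries lie above all others for Gpnmb, Fnip2, Rragd and Sqstm1, and within the range of the others for Tfe3, Tfeb and Mitf.

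Outside i7, Gpnmb was highest in the i12 lines, with 17.2 and 25.0 CPM in i12 clone 10 and 13.8 and 17.9 CPM in its parental line. The i10 parental line had 8.58 and 14.2 CPM and i10 clone 18 had 7.25 and 14.6 CPM, so the replicates of i10 lay further apart than its lines. The d6 lines lay between 7.48 and 8.43 CPM and the d3 lines between 4.10 and 6.99 CPM. In order of their means, i7 clone 12 was followed by i12 clone 10, i12 parental, i10 parental, i10 clone 18, i7 clone 7, d6 parental, d6 clone 16, i7 parental, d3 clone 21, d3 parental and d3 clone 12. Among these neighbours, only i7 clone 12 and i12 clone 10, i7 clone 7 and d6 parental, and d6 clone 16 and i7 parental did not overlap in their libraries. Gpnmb was not called in the clones outside i7, where its log2 changes were -0.35 and 0.03 in d3 clones 12 and 21, -0.07 in d6 clone 16, -0.03 in i10 clone 18 and 0.41 in clone 10 of i12.

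The genes of the folliculin and Rag branch came next. Flcn (ENSMUSG00000032633.12, chromosome 11, 59791408 to 59810016, minus strand), which encodes the GTPase-activating subunit for RagC and RagD, had 48.5 and 56.3 CPM in i7 clone 12. It had 30.6 and 36.6 CPM in the i7 parental line and 29.0 and 34.8 CPM in i7 clone 7. Both libraries of i7 clone 12 were above the other 4 of i7, but not above all others, since i10 parental replicate 2 had 51.7 CPM. The log2 difference from the parental line was 0.64 (SE 0.285).

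Rragd (ENSMUSG00000028278.14, chromosome 4, 32983037 to 33022180, plus strand), the RagD GTPase and itself a known MiT/TFE target, had 39.9 and 35.9 CPM in i7 clone 12. Its levels were 22.7 and 18.8 CPM in the parental line and 23.2 and 21.2 CPM in i7 clone 7. No other library reached those of i7 clone 12, the nearest being i12 parental replicate 2 with 30.1 CPM. The log2 difference from the parental line was 0.87 (SE 0.439), which was smaller than the difference of 1.46 between the 2 replicates of the i12 parental line (10.95 and 30.1 CPM).

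Fnip2 (ENSMUSG00000061175.11, chromosome 3, 79455974 to 79567796, minus strand), a folliculin partner, had 217 and 240 CPM in i7 clone 12, above all 22 others. The i7 parental line had 159 and 165 CPM, i7 clone 7 had 168 and 170 CPM, and the log2 difference from the parental line was 0.49 (SE 0.227). Fnip1 (ENSMUSG00000035992.15, chromosome 11, 54438199 to 54518235, plus strand), the other partner, had 24.7 and 27.4 CPM in i7 clone 12 and 21.9 and 22.6 CPM in the parental line. For Fnip1 the libraries of i7 clone 12 overlapped those of i7 clone 7 (25.0 and 23.9 CPM), and the log2 difference from the parental line was 0.22 (SE 0.293). All 6 libraries of i7 lay above the other 18 for Fnip1, which reached 20.5 CPM there, and for Fnip2 5 of the 6, all but i7 parental replicate 1, lay above the other 18, which reached 163 CPM.

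The RNA of the transcription factors themselves was measured next. Tfe3 (ENSMUSG00000000134.17, X chromosome, 7762560 to 7775202, plus strand), the family member studied most in embryonic stem cells, had 63.0 and 55.2 CPM in i7 clone 12 and 66.6 and 62.6 CPM in the parental line. Tfeb (ENSMUSG00000023990.18, chromosome 17, 47737030 to 47792419, plus strand) had 69.8 and 63.5 CPM against 60.4 and 59.2 CPM. Mitf (ENSMUSG00000035158.15, chromosome 6, 97807052 to 98021349, plus strand), best known for its role in melanocytes, had 27.0 CPM in both libraries against 31.5 and 25.2 CPM. The log2 differences were -0.13 (SE 0.178) for Tfe3, 0.16 (SE 0.246) for Tfeb and -0.07 (SE 0.225) for Mitf, each within 1 standard error of 0, and the libraries overlapped for Tfe3 and Mitf. These are RNA levels, and where the proteins lay in the cell was not measured.

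Among the targets, Sqstm1 (ENSMUSG00000015837.15, chromosome 11, 50199366 to 50210827, minus strand), which encodes the autophagy receptor p62, had 245 and 273 CPM in i7 clone 12. It had 163 and 174 CPM in the parental line and 167 and 180 CPM in i7 clone 7. The libraries of i7 clone 12 exceeded all 22 others, which reached 185 CPM in d3 parental replicate 2, and the log2 difference from the parental line was 0.62 (SE 0.171). Ctsd (ENSMUSG00000007891.16, chromosome 7, 142375911 to 142388038, minus strand), the lysosomal aspartyl protease cathepsin D, had 269 and 266 CPM in i7 clone 12 against 229 and 221 CPM, a log2 difference of 0.25 (SE 0.340). Its levels in i7 clone 12 exceeded the other 4 libraries of i7 but not replicate 2 of the i12 parental line (316 CPM), the i10 parental line (270 CPM) or i10 clone 18 (267 CPM, above 1 of the 2).

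Ctsd shares its strand with the overlapping Gm49369, which had up to 1768 counts in a library, and Sqstm1 overlaps Mrnip on the opposite strand, which had up to 242. The libraries are stranded, but whether the counting used strand is not given, so both genes carry that uncertainty. Genes overlapping Mitf, Fnip1, Fnip2 and Rragd had at most 2 counts in any library, and none overlapped the other 4.

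Each gene was then tested in i7 clone 12 against its parental line by edgeR's quasi-likelihood test over 16253 genes, with p-values adjusted by Benjamini and Hochberg. Without a replicate block, none of the 9 genes other than Gpnmb was called at an adjusted p under 0.05, where 0.0246% of all genes were called. Adjusted p-values were 0.318 for Sqstm1, 0.767 for Flcn, 0.787 for Fnip2, 0.853 for Rragd and 1.00 for each of the other 5, and 3 of the 9 (Sqstm1, Flcn and Fnip2) had an unadjusted p under 0.05, as had 6.19% of all genes. DESeq2 without the block called none of them either, where it called 0.58% of the genes it tested. In that fit 3 of the 9 had an unadjusted p under 0.05, for which the share of all genes is not given here. A second fit added a block for the replicate number within each recombination, since same-numbered libraries of a recombination deviated together.

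With the block, 3 of the 9 genes were called higher in i7 clone 12 and none lower: Flcn (log2 0.64, SE 0.139, edgeR adjusted p = 0.0118), Rragd (0.87, SE 0.200, edgeR adjusted p = 0.0154) and Sqstm1 (0.62, SE 0.152, edgeR adjusted p = 0.0215). In that fit 6.27% of all genes were called, 3.52% higher and 2.75% lower, and because Gpnmb was chosen on this comparison nothing is read from the members' count against those shares. Each of the 3 was higher in both libraries of the clone than in both of the parental line. So were Ctsd, Fnip1, Fnip2 and Tfeb, which were not called, and the share of all genes without overlap was not counted. Fnip2 had an edgeR adjusted p of 0.0912, and the other 5 had at least 0.4999. DESeq2 with the block called the same 3 genes, where it called 5.47% of the genes it tested.

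The calls rested on all 4 libraries, as did most calls over all genes. With the block and any 1 of them left out, none of the 3 was called: edgeR adjusted p-values ran from 0.111 to 0.197 for Flcn, from 0.160 to 0.200 for Rragd and from 0.188 to 0.244 for Sqstm1. Of all genes, 0.566% to 1.71% were called in those 4 fits, against 6.27% with all libraries. The log2 changes of Flcn, Rragd and Sqstm1 then ran from 0.63 to 0.65, from 0.81 to 0.93 and from 0.58 to 0.66. Over the 9 genes the median log2 change was 0.25 with 7 of 9 above 0, beside a median of -0.0026 over all genes without the block.

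**Figure D2:**
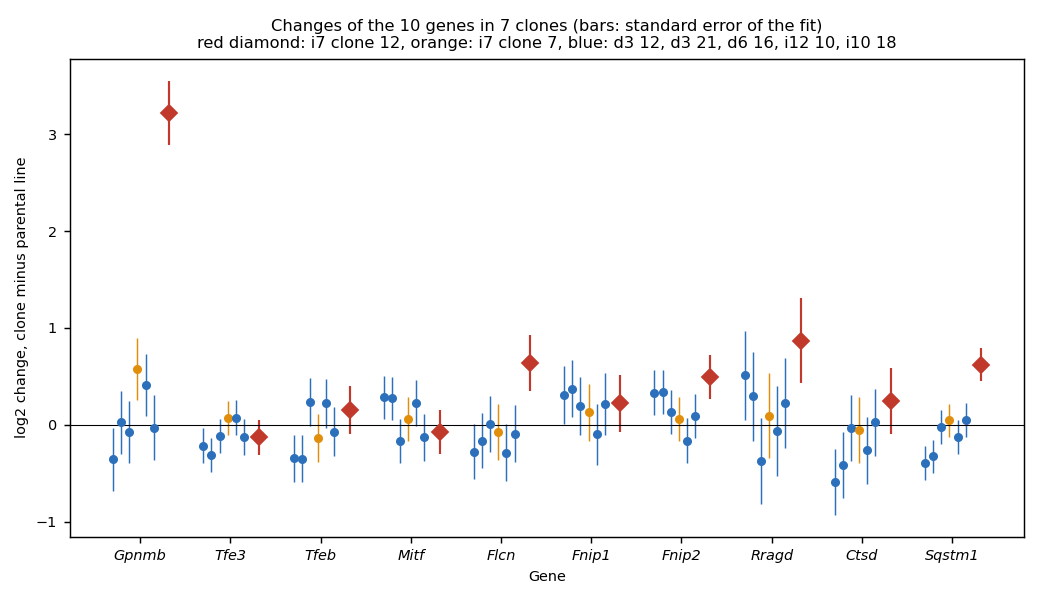
Log2 change of each of the 10 genes (horizontal axis) in the 7 clones against their parental lines, from the fit without a replicate block, with standard errors as bars. In i7 clone 12 (red diamonds) Gpnmb lies at 3.22, and Flcn, Fnip2, Rragd and Sqstm1 lie between 0.49 and 0.87, while Tfe3, Tfeb and Mitf lie between -0.13 and 0.16.

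The same genes were compared between the 2 clones of i7, which tests whether their changes differ between clones of one recombination. Without the block none of the 9 was called, with 0.0923% of all genes called. An unadjusted p under 0.05 was found for 2 of the 9 (Flcn and Sqstm1) and 8.29% of all genes. DESeq2 without the block called none of the 9, where it called 1.01% of the genes it tested. With the block Flcn (log2 0.71, SE 0.139, edgeR adjusted p = 0.00386), Rragd (0.77, SE 0.197, edgeR adjusted p = 0.0205) and Sqstm1 (0.58, SE 0.152, edgeR adjusted p = 0.0236) were called higher in clone 12, with 9.76% of all genes called. This comparison shares the clone 12 libraries with the one against the parental line, so the 2 sets of values are not independent. With the block and 1 of its 4 libraries left out, none was called, with edgeR adjusted p-values from 0.0516 to 0.239, while the share of all genes called was 1.63% to 3.09%.

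In i7 clone 7 against the parental line, none of the 9 genes was called with or without the block, where 0% of all genes were called. None of the 9 had an unadjusted p under 0.05, where 0.295% of all genes had one without the block and 1.82% with it. Its Flcn, Rragd and Sqstm1 libraries overlapped those of the parental line, as did those of Tfe3, Tfeb and Mitf. Those of Fnip1 and Fnip2 lay above the parental libraries and those of Ctsd below them. The share of all genes without overlap was not counted here either, so nothing is read from these genes. The median log2 change of the 9 was 0.06.

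In the clones of the other recombinations none of the 10 genes was called, with or without the block, by edgeR or by DESeq2. Of the genes it tested, DESeq2 called 0.0123% without and 0.265% with the block in d3 clone 12. In d3 clone 21 it called 0.0969% and 0.193%, and its shares for d6, i10 and i12 are not given here. In d3 clone 12, where 0.0123% of all genes were called in both fits, 1 of the 10 (Sqstm1) passed an unadjusted 0.05 without the block and 4 did with it, as did 4.39% and 16.1% of all genes. In d3 clone 21 these counts were 0 and 2 (2.38% and 12.6% of all genes), with 0.0554% of all genes called without the block and 0.123% with it. For d6 clone 16 they were 0 and 0 (0.751% and 5.14% of all genes), with 0.0123% and 0.0861% called. Both i12 clone 10 and i10 clone 18 likewise had counts of 0, with 0% of all genes called. Of all genes, 1.31% and 5.9% passed an unadjusted 0.05 in i12 clone 10 without and with the block, and 0.788% and 2.3% in i10 clone 18.

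Whether genes were called in d3 depended on which libraries were kept. Without d3 parental replicate 1, which leaves the parental line to the replicate that stood apart, Sqstm1 was called lower in d3 clone 12 without the block, where 5.06% of all genes were called. With the block 9 of the 10 genes were then called in d3 clone 12 and 8 in d3 clone 21, 4 of them higher in each, where 30.8% and 28.5% of all genes were called. Without d3 clone 12 replicate 1 and with the block, Ctsd and Sqstm1 were called lower, where 11.8% of all genes were called. In these fits the lone library of a group is assumed to vary like the other groups. With all libraries, Ctsd had a log2 change of -0.59 (SE 0.342) and Sqstm1 of -0.39 (SE 0.171) in d3 clone 12.

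The parental lines were compared to see how far the genes vary between lines. In a joint edgeR test over the 5 parental lines, 1 of the 9 genes other than Gpnmb was called, where 6.64% of all genes were called. That gene was Fnip2 (edgeR adjusted p = 0.0162), which was highest in the i7 line and lowest in the d3 line, a log2 range of 1.29. Sqstm1 ranged by 0.58 (edgeR adjusted p = 0.0765) and Rragd by 1.41 (edgeR adjusted p = 0.185), and both were also highest in the i7 line. For Fnip2 and Rragd the low end rests in part on d3 parental replicate 2, which stood apart. It had 50.4 CPM for Fnip2 against 82.2 in replicate 1, and 4.63 CPM for Rragd against 10.8. Gpnmb, described without a test because the i7 line entered its selection, ranged by 1.35 from the d3 to the i12 line. With the block, 7 of the 9 genes were called where 50% of all genes were called. That block ties libraries together only within a recombination, while the joint test compares lines of different recombinations.

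Within lines, the replicates of i10 and i12 were far apart for several of the genes. In the i10 parental line the 2 libraries had 11.5 and 24.8 CPM for Rragd, 148 and 270 CPM for Ctsd, and 32.4 and 51.7 CPM for Flcn. Replicate 2 was the higher one for these 3 genes, for Gpnmb and for Fnip2 in the parental line and the clone of both recombinations, though by only 0.03 on the log2 scale for Flcn in i12 clone 10. For Tfeb replicate 2 was the lower one in all 4 lines. In i7 the replicates differed by at most 0.42 on the log2 scale for any of the 10 genes, the largest difference being that of Mitf in clone 7.

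The counts of the 2 alleles were then compared, to ask whether a difference lay on 1 genome. In i7 clone 12, Gpnmb had 136 and 225 counts from the 129S1 allele and 397 and 666 from the CAST allele, against 24 and 31 and against 29 and 35 in the parental line. In i7 clone 12, 129S1 counts made up 25.5% in replicate 1, with a 95% Wilson interval from 22 to 29.4, and 25.3% in replicate 2, with one from 22.5 to 28.2. In the parental line they made up 45.3% (32.7 to 58.6) and 47.0% (35.4 to 58.8). Both alleles were thus higher, the CAST allele more so, with log2 differences of 3.69 (SE 0.293) for CAST and 2.39 (SE 0.403) for 129S1 counts taken alone. The 129S1 to CAST ratio fell by 1.34 on the log2 scale (SE 0.262), which is given as a description. Among the other 22 libraries the share ran from 25.9% to 62.2%, and d6 parental replicate 1 (25.9%, interval 17.6 to 36.4) and i12 parental replicate 1 (25.9%, interval 16.4 to 38.4) were as low on fewer counts. Such intervals cover counting error only.

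**Figure D3:**
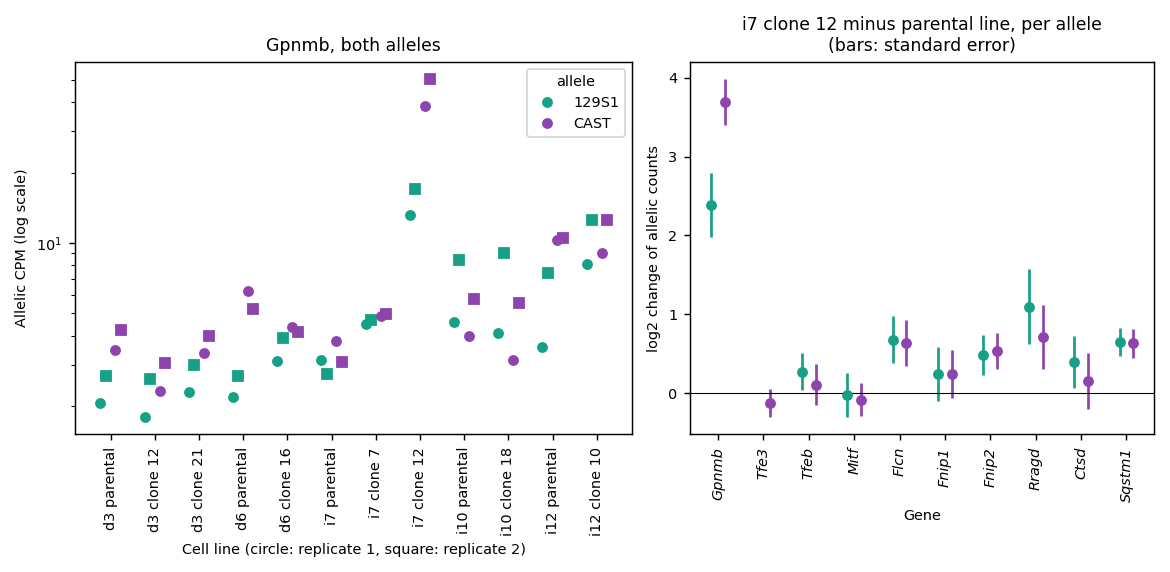
Left, CPM of Gpnmb from each allele in all 24 libraries on a logarithmic axis, with circles for replicate 1 and squares for replicate 2; right, log2 change of each gene in i7 clone 12 against its parental line from the counts of 1 allele at a time, with standard errors as bars. Gpnmb changed by 3.69 on CAST and 2.39 on 129S1 counts, while Sqstm1 (0.63 and 0.65) and Flcn (0.63 and 0.67) lie close together on both, and Tfe3 has no 129S1 point.

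For the other genes of i7 clone 12 no difference between the alleles was called. Sqstm1 had log2 differences of 0.65 (SE 0.183) on 129S1 and 0.63 (SE 0.181) on CAST counts, Flcn 0.67 (SE 0.297) and 0.63 (SE 0.293), and Rragd 1.097 (SE 0.471) and 0.71 (SE 0.404). With the block, these 3 were called on the counts of either allele alone, and Fnip2 on the CAST counts (log2 0.53, edgeR adjusted p = 0.0315). In those fits 3.83% of all genes were called on 129S1 counts and 5.99% on CAST counts. A test of the allelic ratio called none of the 8 genes it could test besides Gpnmb, with log2 changes of the ratio from -0.07 for Fnip2 to 0.35 for Rragd, edgeR adjusted p-values of at least 0.839 and none at an unadjusted p under 0.05, where 2.33% of genes were called. Against i7 clone 7, none of the 8 was called either, where 2.38% of genes were called.

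In the other clones the allelic ratio of Gpnmb and these 8 genes was not called in any comparison. Over all genes tested for it, d3 clone 12 and d6 clone 16 each had 0.0463% called and d3 clone 21 had 3.41%. The share was 0.00926% for i7 clone 7, the same for i12 clone 10, and 0% for i10 clone 18. Gpnmb had a 129S1 to CAST ratio higher by 0.97 (SE 0.306, edgeR adjusted p = 1.00) in d6 clone 16 and by 0.87 (SE 0.290, edgeR adjusted p = 0.724) in i12 clone 10. That of Flcn was higher by 0.64 (SE 0.220, edgeR adjusted p = 0.724) in i12 clone 10 and by 0.48 (SE 0.220, edgeR adjusted p = 1.00) in i10 clone 18, and Ctsd by 0.34 (SE 0.118, edgeR adjusted p = 1.00) in d6 clone 16. These 5 were the ones at an unadjusted p under 0.05, which 3.19% to 5.28% of all genes tested had in those 3 clones.

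Tfe3 was counted almost wholly from the CAST allele. It had 0 to 3 counts from 129S1 and 215 to 1235 from CAST per library, and so did not enter the ratio test. It lies on the X chromosome, where 223 of 437 genes with at least 500 counts had a 129S1 share under 2%, against 438 of 12223 on the autosomes. The other 8 genes, Gpnmb aside, had 129S1 shares from 32.9% (Fnip1) to 61.5% (Mitf) over all libraries.

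The rest of the pathway was described by lists of genes. Of the 168 listed genes, 153 could be tested in i7 clone 12, and none was called without the block. With the block 6 genes rose and 4 fell, beside the 3.52% and 2.75% of all genes named above. An unadjusted 0.05 was passed by 12 of the 153 without the block, where 6.19% of all genes passed it, and by 35 with the block, where 20.1% did. The median log2 change of the 153 was 0.04, beside -0.00074 over all genes. Against i7 clone 7 with the block, 9 of the 153 were called higher and 9 lower, where 9.76% of all genes were called. There the autophagy machinery had 3 called higher and 3 lower, and the V-ATPase subunits 1 higher and 1 lower. The lists below are described against the parental line.

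Lysosomal hydrolases and their cofactors, 41 of 47 tested, had 2 genes called higher and 3 lower with the block, and a median of -0.07. Npc2, which carries cholesterol inside the lysosome, had 379 and 384 CPM in i7 clone 12 against 261 and 262 CPM in the parental line (log2 0.55, edgeR adjusted p = 0.0311). Ctsa, the protective protein for neuraminidase, had 266 CPM in both libraries against 207 and 195 CPM (log2 0.41, edgeR adjusted p = 0.0395). Aga, which removes asparagine from glycoproteins, fell by 0.85 on the log2 scale (edgeR adjusted p = 0.0118), from 16.95 and 18.0 CPM to 8.61 and 10.7 CPM. Hgsnat, of heparan sulphate breakdown, fell by 0.67 (edgeR adjusted p = 0.0309) and Galc, the galactosylceramidase, by 0.54 (edgeR adjusted p = 0.0468).

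Of 22 lysosomal membrane proteins tested, none was called with the block (5 passed an unadjusted 0.05), and their median was 0.04. Among 21 subunits of the V-ATPase, the proton pump that acidifies lysosomes, the median was 0.18, 16 were above 0 and 1 was called: Atp6v0c, the membrane ring subunit, with 367 and 342 CPM against 245 and 240 CPM (log2 0.55, edgeR adjusted p = 0.00996). Of 32 genes of mTORC1 and lysosomal nutrient sensing, 1 was called, and the median was 0.01. That gene was Deptor, an inhibitor of mTOR, which fell by 0.64 (edgeR adjusted p = 0.0284) from 279 and 261 CPM to 178 and 168 CPM.

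The autophagy machinery, 34 genes, had a median of 0.09 and 2 genes called higher. Map1lc3b, which encodes the autophagosome protein LC3B, had 157 and 151 CPM against 105 and 104 CPM (log2 0.56, edgeR adjusted p = 0.0140). Atg2a, a lipid transfer protein of forming autophagosomes, had 94.7 and 87.1 CPM against 41.3 and 41.6 CPM (log2 1.13, edgeR adjusted p = 5.43e-04). Atg2a lies on chromosome 19, whose 530 tested genes had a median log2 change of 0.50 in i7 clone 12, whereas medians on the 7 chromosomes of the 10 genes lay between -0.03 and 0.02. The part of that shift in Atg2a was not tested.

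A list of 15 other reported MiT/TFE targets, which shares members with the lists above, had 12 genes tested, a median of 0.22 and 2 called higher, Map1lc3b and Amdhd2. Amdhd2, an enzyme of amino sugar metabolism, had 43.0 and 44.6 CPM in i7 clone 12 against 20.6 and 29.8 CPM (log2 0.80, edgeR adjusted p = 0.0127). Over the 6 other clones the median of that list ran from -0.11 to 0.10, and that of the V-ATPase subunits from -0.19 to 0.05. Tfec, the remaining family member, had 0 counts in all 24 libraries, where a count of 0 allows up to 3.

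**Figure D4:**
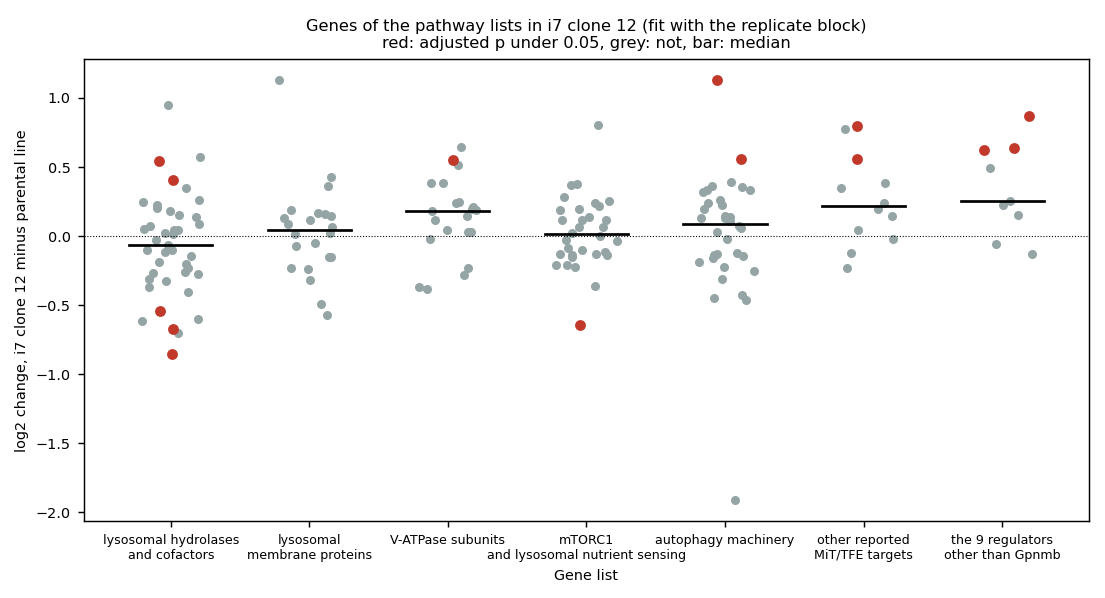
Log2 change in i7 clone 12 against its parental line for every tested gene of 6 pathway lists and for the 9 genes other than Gpnmb, from the fit with the replicate block. The axis labels these 9 as regulators, though Ctsd and Sqstm1 among them are targets. Red points had an adjusted p under 0.05, and bars are medians. Medians run from -0.07 for the hydrolases to 0.22 for the other reported targets and 0.25 for the 9 genes, and hydrolases were called in both directions.

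Markers of cell types in which Gpnmb is abundant were also read. The 10 melanocyte markers, of which 3 passed the filter, summed to 245 to 265 CPM in i7 clone 12, 127 to 144 CPM in the i7 parental line, 105 to 151 CPM in i7 clone 7 and 56.5 to 92.8 CPM in the other 18 libraries. Most of that was Trpm1, a cation channel gene that hosts a microRNA and is a known MITF target, with 220 and 202 CPM in i7 clone 12 against 111 and 97.5 CPM (log2 1.02, edgeR adjusted p = 0.00171 with the block). Pmel, a melanosome protein, had 40.9 and 40.1 CPM against 32.2 and 28.2 CPM, and Mlana, on chromosome 19, had 41 and 31 counts against 3 and 13. Tyr, the defining pigment enzyme, had 0 counts in 23 libraries and 1 in the other.

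The 15 macrophage markers, 4 of them past the filter, summed to 23.6 to 24.6 CPM in i7 clone 12, 18.9 to 22.5 CPM in the i7 parental line, 22.7 to 25.2 CPM in i7 clone 7 and 12.4 to 29.5 CPM in the other 18 libraries, and Ptprc had 0 counts in all 24. Csf1r had 15.6 and 13.5 CPM in i7 clone 12 and 15.1 and 11.1 CPM in the parental line. The 12 markers of naive pluripotency all passed the filter and none was called in i7 clone 12 with the block (3 had an unadjusted p under 0.05). Of 11 differentiation markers tested, 7 were above 0, the median log2 change was 0.68 and 1 was called higher with the block. That gene was T, the mesoderm factor brachyury, with 43.7 and 19.9 CPM against 9.20 and 8.31 CPM. With the block 5 of the 11 passed an unadjusted 0.05, as did 20.1% of all genes. Without it none was called and 2 passed, where 6.19% of all genes did. Over the 6 other clones the median of this list ran from -0.24 to 0.44. The 16 genes of that list summed to 37.8 to 59.8 CPM in i7 clone 12, 20.3 to 21.4 CPM in the parental line and 18.4 to 77.8 CPM in the other 18 libraries. The part of these marker genes in the levels of Gpnmb and the other 9 genes was not tested.

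Finally, genes were ranked by how closely their log2 CPM followed Gpnmb over the 24 libraries, as a description. These libraries come in pairs from 12 groups and differ in sequencing depth, from 3286819 to 15581094 total counts. The i12 libraries, with the highest Gpnmb outside i7, had 3829089 to 6920899 total counts. The part of depth in these correlations was not tested. The 5 highest Pearson correlations were those of Scrn1 (r = 0.87), Stx3 (0.87), Ndufs8 (0.85), Slc30a2 (0.85) and Aqp3 (0.84). Aqp3, a water and glycerol channel, had a mean of 360 CPM in i7 clone 12 against 61.2 CPM in the parental line and 61.8 CPM in clone 7, and Scrn1 had 22.2 CPM against 9.07 and 7.85 CPM. Stx3 and Ndufs8 lie on chromosome 19. Of the 5, only the zinc transporter gene Slc30a2 was also among the 5 highest over the 18 libraries outside i7 (r = 0.96).

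The same measure was taken for the other 9 genes. Over the 24 libraries r was 0.70 for Fnip2, 0.68 for Rragd, 0.60 for Flcn and for Ctsd, 0.50 for Sqstm1 and 0.44 for Fnip1. It was below 0 for the transcription factors, at -0.12 for Tfeb, -0.27 for Mitf and -0.35 for Tfe3. Over the 18 libraries outside i7, r was 0.76 for Fnip2, 0.66 for Ctsd, 0.63 for Rragd, 0.37 for Flcn, 0.29 for Fnip1 and -0.17 for Sqstm1. For the transcription factors it was -0.70 for Mitf, -0.54 for Tfeb and -0.26 for Tfe3 there.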

How the data were processed

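The deposited table holds raw counts, whole numbers per gene with 1 column per library for each allele (129S1 and CAST), per the file headers. STAR, SAMtools and the genome build mm10 are named in the submitters' processing notes. Their settings, the counting program, its annotation and what was done with reads that carry no strain variant are not given in the sources used here. Of 48985 gene identifiers, 48301 were identical to GENCODE M21 and 48838 matched without the version number; unmatched rows held 0.0148% of counts. No column of per-sample values was left unmapped.

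Counts of both alleles were summed. The first fit used edgeR 4.0.16 in R 4.3.3 with TMM normalisation, filterByExpr (16253 genes), 1 quasi-likelihood fit of 24 libraries with a coefficient per group (12 residual degrees of freedom, biological coefficient of variation 0.246) and Benjamini-Hochberg adjustment over all genes tested. CPM were computed with the effective library sizes of that fit. A second fit added the replicate number within each recombination as a block (7 degrees of freedom, 0.119). The labels do not say that a number marks a shared batch. Over genes, the replicate difference correlated between groups of 1 recombination with r from 0.36 to 0.69 (9 pairs of groups, median 0.55, 0.36 for i7 parental and i7 clone 12). The numbers were therefore taken to pair libraries there. Between groups of different recombinations (57 pairs) r ran from -0.21 to 0.60, with a median of 0.21. It reached 0.60 for d3 clone 21 with d6 clone 16 and 0.58 for i12 parental with i10 parental. The block does not model such ties across recombinations. For the allelic ratio, 129S1 and CAST counts of 10795 genes (mean of 10 or more for either allele) entered 1 fit with terms for each library and for the allele within each group, and no block. Correlations with Gpnmb used log2 CPM with a prior count of 2. Shares of counts have 95% Wilson intervals and a count of 0 is taken to allow up to 3 counts. DESeq2 1.42.0 served for alternatives, with Python 3.11.15 (matplotlib 3.10.9, pandas 2.3.3, scipy 1.17.1) for summaries and plots.

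The 10 genes, the lists and the tests were chosen with earlier results of these data known. Text named all 10 genes, at most 5 called genes per pathway list in i7 clone 12, a set of defining markers and the 5 genes most correlated with Gpnmb. Other alternatives were RLE size factors, other filters, single alleles, fits of the compared libraries alone, and the omission of each library.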

Additional observations from a re-analysis of the deposited data

Results flagged for a closer look

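The effects of i7 clone 12 and i7 clone 7 differed for 3 genes in the comparison of the 2 clones with the replicate block. In that fit 9.76% of all genes were called. Nothing is read from the 3 against that share, since Gpnmb was chosen on the same clone 12 libraries. The log2 effect in clone 12 minus that in clone 7 was 0.71 for Flcn, 0.77 for Rragd and 0.58 for Sqstm1. Without the block none of these differences was called, and with the block none was called once 1 of the 4 libraries was left out. No group has the 4 samples needed to ask whether a single library lies far from the rest of its group.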

How the results depend on the processing

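Most calls here depend on the replicate block. For the 9 genes other than Gpnmb in i7 clone 12 against the parental line, 0 were called without the block. With the replicate block 3 were called, also with a mean of at least 50 counts (8.49% of all genes called), with 129S1 counts alone (3.83%) or with DESeq2 (5.47%), and 4 with CAST counts alone (5.99%). In a fit of the compared libraries alone, 1 (Rragd) was called without the block (1.49% of all genes) and 5 with it (22%). Against i7 clone 7 these counts were 0 without the block, 3 with the block and in its combinations with the stricter filter, either allele or DESeq2 (5.83% to 12% of all genes called), 1 (Rragd) for the compared libraries alone (2.2%) and 6 for those with the block (31.2%). In d3 clone 12, leaving out 1 library gave 0 to 1 genes called without the block and 0 to 9 with the replicate block (2 without clone 12 replicate 1), and in d3 clone 21 it gave 0 to 8 with the block. Over the 5 parental lines 1 of 9 was called (6.64% of all genes), against 7 with the replicate block (50%) and 3 without the filter on low counts (11.9%). Of the pathway genes in i7 clone 12, 0 were called without the block, 10 with the replicate block, 9 with the block and without chromosome 19, and 11 with the block and a mean of at least 50 counts. The cause of these differences was not tested. Among 1664 changes of single genes under an alternative, 117 had another sign than in the fit without the block, none of them of a called change. The combinations with the block were chosen after seeing the data.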
